A study of Homo sapiens with 8 samples.

Results

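The Arp2/3 complex is the actin nucleator that starts a new filament as a branch on the side of an existing one. Its actin-related proteins Arp2 and Arp3, encoded by ACTR2 and ACTR3, form the base of the new branch. ARPC2 and ARPC4 make up the core that sits on the mother filament, ARPC3 and ARPC5 complete the scaffold, and ARPC1A and ARPC1B are alternative versions of the propeller-shaped subunit. Activators of the WASP and WAVE families switch the complex on, and in mesenchymal cells it is known for building the branched actin of the leading edge. The genes described here are these 8 subunits, found by their symbol in the deposited intron tables. Of them 7 were listed, with 50 introns, out of 15902 genes and 142224 introns. ARPC4 was not analysed here.

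All libraries came from SUM159, an established human cell line of triple-negative breast cancer with mesenchymal features. The cells received H3B-8800, a splicing modulator directed at the SF3b part of the spliceosome, or DMSO as vehicle, for 12 h. Polyadenylated RNA was sequenced directly as input or after pull-down by J2, which binds double-stranded RNA. The 4 groups, J2 RNA with drug, J2 RNA with vehicle, input with drug and input with vehicle, held 2 biological replicates each, all from this line. No immunoprecipitation with a control antibody was among them, so nothing here shows that the RNA recovered with J2 was double-stranded.

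Each table gives, per intron, the reads inside the intron and a larger total. What the total holds beyond the intronic reads was used as the number of spliced reads. RPM stands for reads per 1000000 reads of depth, and the depth of the libraries ran from 47000000 to 57000000 reads. The reads listed over all introns ran from 12612577 to 14643731. Intronic reads were 12.5% to 13.0% of listed reads in J2 RNA with drug and 3.63% to 3.98% in J2 RNA with vehicle. They were 10.3% to 13.0% in input with drug and 3.81% to 3.83% in input with vehicle. Among markers of the line, the mesenchymal genes VIM and AXL had 464 and 261 spliced RPM in input with vehicle, and MSN, FN1 and CD44 had 147, 40.9 and 10.4 RPM. The mesenchymal factors SNAI2 and ZEB1 were low, at 2.72 and 0.784 RPM. Of the luminal genes ESR1 and PGR had none, CDH1 and EPCAM had 0.0306 RPM each, FOXA1 had 0.0098 RPM and GATA3 had 2.24 RPM. The luminal keratins KRT8 and KRT18 had 113 and 124 RPM, whereas KRT19 had 0.0404 RPM. Of the blood cell markers CD3E had none, while CD68 and LAPTM5 had 8.50 and 10.4 RPM.

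Fold changes are on the log2 scale with their SE, from edgeR's quasi-likelihood test on all genes with Benjamini-Hochberg adjustment, and a gene was called at an adjusted p under 0.05. The 8 genes were chosen by their symbol after spliced and intronic reads of these same libraries were known. Their values are therefore a description, and their p-values are not independent evidence that the complex responded. In bulk RNA, fewer cells holding a transcript and less of it per cell cannot be told apart.

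The subunit transcripts differed in abundance, and their order was not the same in the 4 groups. To compare genes, spliced RPM were divided by the number of listed introns. In J2 RNA with drug the order was ARPC2 (23.5 RPM per intron), ARPC5 (13.5), ARPC3 (9.60), ARPC1B (8.13), ARPC1A (5.95), ACTR2 (2.40) and ACTR3 (1.91), each the mean of 2 libraries. In J2 RNA with vehicle it was ARPC2 (32.2), ARPC1A (16.6), ARPC3 (14.2), ARPC1B (13.8), ARPC5 (7.33), ACTR2 (1.49) and ACTR3 (0.818). In input with drug it was ARPC2 (21.8), ARPC3 (11.8), ARPC5 (9.21), ARPC1B (7.10), ACTR2 (4.58), ARPC1A (2.90) and ACTR3 (1.56). In input with vehicle it was ARPC2 (16.9), ARPC1B (14.1), ARPC3 (13.5), ARPC5 (7.50), ACTR2 (5.56), ARPC1A (4.57) and ACTR3 (3.05). Thus ARPC2 led and ACTR3 came last in every group, while ARPC1A was next to last in the input and stood behind ARPC2 alone in J2 RNA with vehicle. The libraries of neighbours in these orders did not overlap, except for ACTR2 and ACTR3 in J2 RNA with drug. There the libraries had 1.97 and 2.82 RPM per intron for ACTR2 and 1.62 and 2.20 for ACTR3. Spliced reads were not even along a gene. Intron 1 of ACTR2 held 60.9% of its spliced reads in input with vehicle, and intron 2 of ARPC5 held 93.1%, so the sum over such a gene mostly follows that intron.

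**Figure D1:**
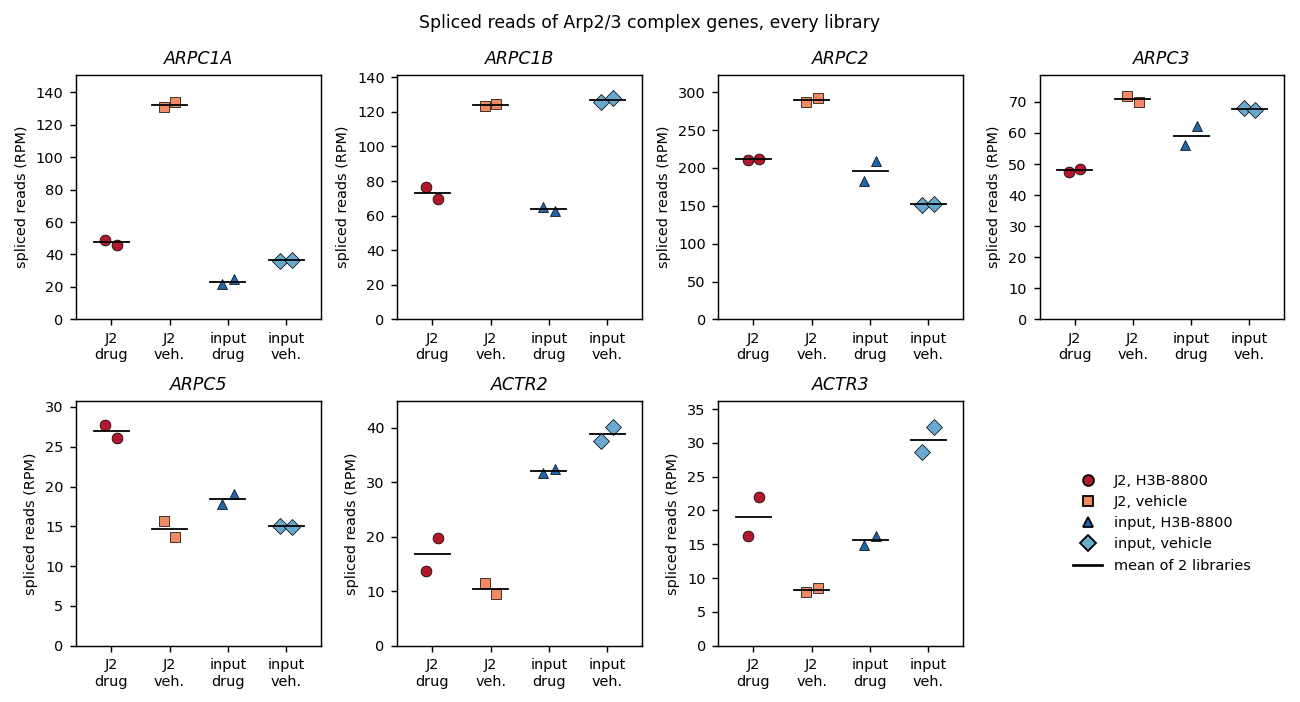
Spliced reads in RPM for the 7 listed genes, 1 point per library and a line at the mean of the 2 libraries of each group, on a linear axis from 0 that differs between genes. ARPC1A stands at 131 and 134 RPM in J2 RNA with vehicle, above all its other libraries, while ACTR3 stands at 7.87 and 8.49 RPM there, below all its other libraries.

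The comparison of J2 RNA with input asked which transcripts the antibody recovered. With vehicle, ARPC1A, a propeller subunit, was recovered far above its input level, and ARPC2, the core subunit, was recovered above it. The actin-related ACTR2 and ACTR3 were depleted. ARPC1A had 131 and 134 spliced RPM in J2 RNA with vehicle, against 36.2 and 36.9 RPM in input with vehicle. The J2 libraries lay above both input libraries, with a log2 fold change of 1.86 ± 0.07 (adjusted p = 3.01e-07, edgeR). This value stood at the 99.9 percentile of the 8461 genes tested. ARPC2 had 287 and 292 RPM in J2 RNA, against 151 and 152 RPM in input, a log2 fold change of 0.93 ± 0.06 (adjusted p = 3.98e-06, edgeR) at the 97.8 percentile.

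ACTR2 had 11.4 and 9.47 RPM in J2 RNA with vehicle, against 37.7 and 40.1 RPM in input with vehicle. ACTR3 had 7.87 and 8.49 RPM in J2 RNA, against 28.6 and 32.3 RPM in input. The groups were apart in both genes. Their log2 fold changes were -1.90 ± 0.15 for ACTR2 (adjusted p = 9.91e-06, edgeR) and -1.90 ± 0.14 for ACTR3 (adjusted p = 6.69e-06, edgeR), at the 7.55 and 7.54 percentiles. ARPC1B, the other propeller subunit, did not pass the test, with 124 and 125 RPM in J2 RNA against 126 and 128 RPM in input. ARPC3 had 71.8 and 70.0 RPM against 68.2 and 67.3 RPM, and ARPC5 had 15.7 and 13.6 RPM against 15.1 and 14.9 RPM. These last genes moved by -0.03 ± 0.06 (ARPC1B), 0.07 ± 0.06 (ARPC3) and -0.03 ± 0.09 (ARPC5) on the log2 scale. In all, 2 of 7 genes were called higher and 2 lower, where 16.4% and 44.3% of all tested genes were called higher and lower. The median over the 7 genes was -0.03, against -0.28 over all genes.

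Other scalings of the libraries shift this comparison as a whole. With size factors by the median of ratios the median of all genes was 0.10 in place of -0.28, with 3049 genes called higher and 2280 lower in place of 1386 and 3746. ARPC1B, ARPC3 and ARPC5 were then called higher, at 0.35, 0.45 and 0.35 on the log2 scale (adjusted p = 0.00435, 0.000127 and 0.00846, edgeR), so that ARPC1B and ARPC5 turned direction. ARPC1A, ARPC2, ACTR2 and ACTR3 kept their call and direction under every setting tried.

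The recovery of a transcript also went with its base composition. Over 8283 genes with a linked transcript, recovery with vehicle had a Spearman correlation of 0.479 with GC content and -0.375 with transcript length, across genes that share the same 8 libraries. The transcripts of ACTR3 and ACTR2 were 35.7% and 39.8% GC and 6718 and 2685 bases long. That of ARPC1A was 49.97% GC and 1565 bases long, near the median GC of 50.4% and shorter than the median of 2912 bases. ARPC1B, at 58.6% GC and 1564 bases, was the most GC-rich member and showed no called recovery. The part of GC content and length in these results was not tested.

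With drug, recovery in J2 RNA was spread less widely among the subunits. ARPC1A still stood above its input, with 49.0 and 46.1 RPM in J2 RNA with drug against 21.6 and 24.8 RPM in input with drug, a log2 fold change of 1.03 ± 0.07 (adjusted p = 3.13e-06, edgeR). ARPC5 had 27.8 and 26.2 RPM against 17.8 and 19.0 RPM, or 0.55 ± 0.09 (adjusted p = 0.000505, edgeR). ARPC1B had 76.6 and 69.8 RPM against 65.3 and 62.6 RPM, or 0.20 ± 0.06 (adjusted p = 0.0166, edgeR). In these 3 genes both J2 libraries were above both input libraries. Summed over its introns, ACTR2 was still depleted, with 13.8 and 19.7 RPM against 31.7 and 32.4 RPM, or -0.93 ± 0.15 (adjusted p = 0.000504, edgeR). This sum mostly follows intron 1, which held 77.7% of its spliced reads in input with drug. The ratio of J2 RNA to input was 0.397 at intron 1 and 0.747 and 0.697 at introns 8 and 9. At introns 4 to 7 of ACTR2 it was 1.05, 1.39, 1.10 and 1.85. ARPC3 was lower too, with 47.5 and 48.5 RPM against 56.2 and 62.1 RPM, or -0.30 ± 0.06 (adjusted p = 0.00222, edgeR).

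ACTR3 and ARPC2 did not pass the test with drug. ACTR3 had 16.2 and 22.0 RPM in J2 RNA against 14.8 and 16.3 RPM in input, groups that overlap, and moved by 0.29 ± 0.14. ARPC2 had 210.5 and 212 RPM against 183 and 209 RPM, and moved by 0.11 ± 0.06, its J2 libraries just above its input libraries. So 3 of 7 genes were called higher and 2 lower, against 28.2% and 27.4% of all tested genes, and their median was 0.20, against 0.02 over all genes. The call of ARPC1B was lost without replicate 1 of J2 RNA with drug (0.13, adjusted p = 0.107, edgeR) and without replicate 2 of input with drug (0.17, adjusted p = 0.0726, edgeR). With TMM scaling ACTR3 and ARPC2 were called higher, at 0.35 and 0.17 (adjusted p = 0.0246 and 0.0255, edgeR). So were ACTR3 without replicate 1 of J2 RNA with drug (0.50, adjusted p = 0.00120, edgeR) and ARPC2 without replicate 2 of input with drug (0.21, adjusted p = 0.00732, edgeR).

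**Figure D2:**
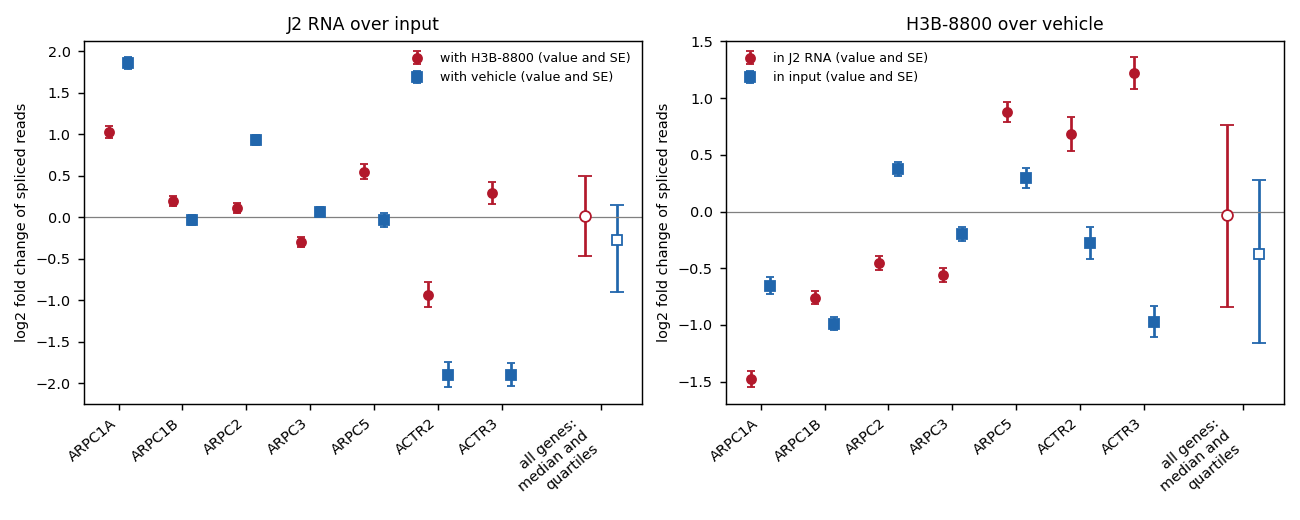
Log2 fold changes of spliced reads with their SE for the 7 genes, J2 RNA over input on the left and H3B-8800 over vehicle on the right. Open symbols give the median of all 8461 tested genes with a bar over the quartiles. On the left ARPC1A lies at 1.03 with drug and 1.86 with vehicle, and ACTR3 at 0.29 and -1.90. On the right ACTR3 lies at 1.22 in J2 RNA and -0.97 in the input.

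The next comparison asked what the drug did to these transcripts. In the input, spliced reads fell for ARPC1A, ARPC1B, ACTR3 and ARPC3 and rose for ARPC2 and ARPC5. ARPC1B had 65.3 and 62.6 RPM with drug against 126 and 128 RPM with vehicle, a log2 fold change of -0.99 ± 0.06 (adjusted p = 3.17e-07, edgeR). ACTR3 had 14.8 and 16.3 RPM against 28.6 and 32.3 RPM, or -0.97 ± 0.14 (adjusted p = 0.000134, edgeR). ARPC1A had 21.6 and 24.8 RPM against 36.2 and 36.9 RPM, or -0.65 ± 0.07 (adjusted p = 2.86e-05, edgeR). The drug and vehicle libraries were apart in all 3. ARPC2 rose, with 183 and 209 RPM against 151 and 152 RPM, or 0.37 ± 0.06 (adjusted p = 0.000442, edgeR).

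Summed over introns, changes were smaller in the other subunits. ARPC5 had 17.8 and 19.0 RPM with drug against 15.1 and 14.9 RPM with vehicle, or 0.30 ± 0.09 (adjusted p = 0.0132, edgeR). ARPC3 had 56.2 and 62.1 RPM against 68.2 and 67.3 RPM, or -0.19 ± 0.06 (adjusted p = 0.0160, edgeR). ACTR2 had 31.7 and 32.4 RPM against 37.7 and 40.1 RPM and did not pass (-0.28 ± 0.14, adjusted p = 0.107, edgeR). In sum 2 of 7 genes rose and 4 fell, where 21.8% of all tested genes were called higher and 48.7% lower, and the median was -0.28, against -0.38 over all genes.

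The small changes depend on the scaling. With the same size factors the median of all genes was 0.03 in place of -0.38, with 3178 genes called higher and 2914 lower in place of 1841 and 4118. ARPC3 then turned direction and was called higher (0.22, adjusted p = 0.00993, edgeR), and ACTR2 turned direction without a call (0.13). At the depth used here ACTR2 was called lower when either library of J2 RNA with drug was left out of the fit (-0.28, adjusted p = 0.00748 without replicate 1, edgeR). The call of ARPC3 was also lost without replicate 1 of input with drug (-0.12, adjusted p = 0.0772, edgeR) and without either vehicle library. That of ARPC5 was lost without replicate 2 of input with drug (0.25, adjusted p = 0.0749, edgeR) and without either vehicle library.

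In J2 RNA all 7 genes were called, 3 of them higher and 4 lower. ACTR3 had 16.2 and 22.0 RPM in J2 RNA with drug against 7.87 and 8.49 RPM in J2 RNA with vehicle, a log2 fold change of 1.22 ± 0.14 (adjusted p = 3.32e-05, edgeR). ACTR2 had 13.8 and 19.7 RPM against 11.4 and 9.47 RPM, or 0.68 ± 0.15 (adjusted p = 0.00245, edgeR). ARPC5 had 27.8 and 26.2 RPM against 15.7 and 13.6 RPM, or 0.88 ± 0.09 (adjusted p = 1.19e-05, edgeR). These 3 genes rose, with no overlap of drug and vehicle libraries. ARPC1A fell most, with 49.0 and 46.1 RPM against 131 and 134 RPM, or -1.48 ± 0.07 (adjusted p = 9.52e-08, edgeR), at the 12.2 percentile of all genes.

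ARPC1B fell as well, with 76.6 and 69.8 RPM in J2 RNA with drug against 124 and 125 RPM in J2 RNA with vehicle, or -0.76 ± 0.06 (adjusted p = 1.82e-06, edgeR). ARPC3 had 47.5 and 48.5 RPM against 71.8 and 70.0 RPM, or -0.56 ± 0.06 (adjusted p = 2.14e-05, edgeR). ARPC2 had 210.5 and 212 RPM against 287 and 292 RPM, or -0.45 ± 0.06 (adjusted p = 0.000104, edgeR). No library of these 3 genes overlapped between drug and vehicle. Of all tested genes 34.6% were called higher and 39.5% lower, and the median was -0.45 over the members, against -0.03 over all genes. Across the 8283 genes the drug effect in J2 RNA had a Spearman correlation of -0.448 with GC content.

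The difference between both drug effects was then tested directly, by subtracting the effect in the input from that in J2 RNA. ACTR3 stood out with 2.19 ± 0.19 (adjusted p = 7.52e-05, edgeR), at the 91.9 percentile of all genes, followed by ACTR2 with 0.96 ± 0.21 (adjusted p = 0.00428, edgeR) and ARPC5 with 0.58 ± 0.12 (adjusted p = 0.00380, edgeR). The effect was lower in J2 RNA for ARPC2 (-0.83 ± 0.09, adjusted p = 0.000148, edgeR) and ARPC1A (-0.82 ± 0.10, adjusted p = 0.000249, edgeR), both at the 6.49 to 6.50 percentiles. It was also lower for ARPC3 (-0.37 ± 0.09, adjusted p = 0.00606, edgeR). ARPC1B had a small positive difference of 0.23 ± 0.08 (adjusted p = 0.0416, edgeR), which TMM scaling brought to 0.03 (adjusted p = 0.872, edgeR) and the median of ratios to -0.11. Its call was lost when any of 6 of the 8 libraries was left out, all but replicate 2 of J2 RNA with drug and replicate 1 of input with drug, with values of 0.16 to 0.24 on the log2 scale (adjusted p = 0.0890 to 0.137, edgeR). The 4 genes called higher and 3 called lower compare with 35.8% and 13.8% of all tested genes. With the median of ratios 1817 genes were called higher and 2189 lower, in place of 3027 and 1171, and ARPC5 was no longer called (0.25, adjusted p = 0.145, edgeR).

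Intron by intron, recovery was uniform in some subunits and split in others. With vehicle, the spliced reads of ARPC1A were higher in J2 RNA than in input at all 8 of its introns, by 1.28-fold at intron 4 to 6.73-fold at intron 8. With drug all 8 were still above 1, from 1.02-fold at intron 3 to 3.04-fold at intron 9. ACTR2 was below 1 with vehicle at all 7 introns (0.0666 to 0.336), and ACTR3 at all 10 (0.139 to 0.369). The lowest value, at intron 5 of ACTR2, rests on 10 and 7 spliced reads in J2 RNA against 105 and 127 in input. With drug ACTR3 was above 1 at 9 of 10 introns, up to 4.36-fold at intron 9, and ACTR2 at 4 of 7. Intron 9 of ACTR3 had 47 and 77 spliced reads in J2 RNA with drug but only 15 and 11 in input with drug. The recovery of ACTR3 thus changed along most of its length and not at 1 junction. ARPC1B kept close to 1 throughout, from 0.893 to 1.43 with drug and from 0.721 to 1.32 with vehicle.

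ARPC2 was split along its length. At introns 7 to 10 the ratio of J2 RNA to input was 0.757, 0.688, 1.01 and 1.05 with drug and 2.53, 2.98, 2.78 and 2.60 with vehicle. At introns 4 and 5 it was 2.28 and 2.12 with drug and 0.757 and 0.974 with vehicle. The downstream introns thus lost recovery with drug while these upstream ones gained it. Intron 8 had 1555 and 1389 spliced reads in J2 RNA with drug and 3737 and 3987 in J2 RNA with vehicle. The same intron had 1786 and 2174 reads in input with drug and 1126 and 1209 in input with vehicle. The call of the whole gene is therefore a sum over introns that moved in opposite directions.

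ARPC3 was split as well, with introns in the middle of the gene apart from those toward both ends. Its introns 3 and 4 had ratios of 1.48 and 2.19 with drug and 0.363 and 0.324 with vehicle. Its introns 1, 2 and 6 had 0.602, 0.915 and 0.888 with drug and 1.21, 1.07 and 1.22 with vehicle. These introns hold most of its reads, with intron 1 alone at 39.0% in J2 RNA with drug and 49.5% in J2 RNA with vehicle. Both introns of ARPC5 were above 1 with drug, at 1.45 and 1.77, and had 0.964 and 1.15 with vehicle. Single introns were not tested for recovery, and processed pseudogenes of ACTR3 and ARPC3 could take or give reads.

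**Figure D3:**
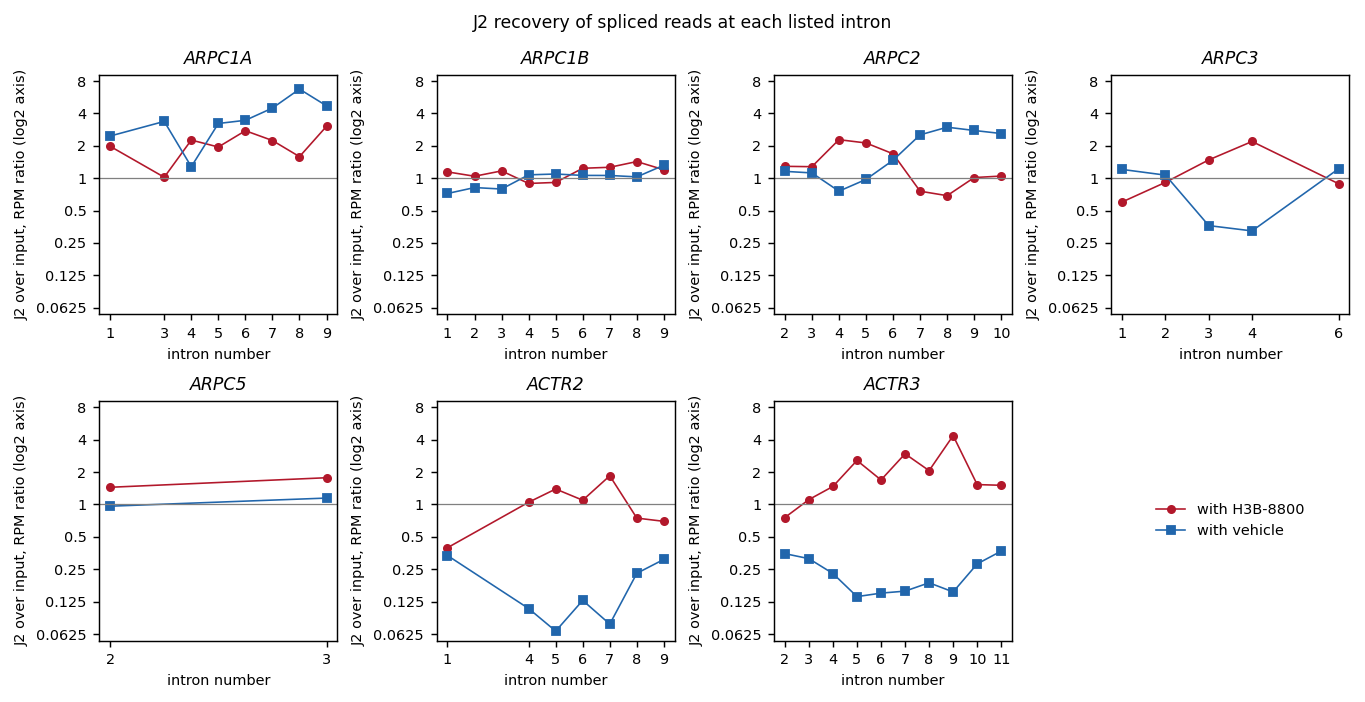
Ratio of spliced RPM in J2 RNA to input (mean over 2 libraries each, log2 axis) at every listed intron, numbered from the 5′ end of the transcript, with drug and with vehicle. For ACTR3 the drug line lies above the vehicle line at all 10 introns, and for ARPC2 the lines cross between introns 6 and 7.

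Reads inside introns were compared to ask what the drug did to the splicing of these genes. Intronic reads rose with drug for ACTR2, ACTR3, ARPC1A, ARPC1B and ARPC2 in both kinds of RNA, and ARPC3 did not pass the test in either. The genes had to reach 1 RPM of intronic reads in 2 libraries to be tested, which 6 of the 7 listed genes did. ARPC5, with 4 intronic reads in J2 RNA with drug, 0 in J2 RNA with vehicle, 22 in input with drug and 6 in input with vehicle, did not. No vehicle library of ACTR2, ACTR3 or ARPC2 reached 1 RPM, so these genes were tested only because of their reads with drug. For them the filter itself favoured a rise. ACTR3 had 83 and 158 intronic reads in J2 RNA with drug against 2 and 0 in J2 RNA with vehicle. Scaled by depth this is 129-fold, with a 95% counting interval of 35.2 to 1069. In the input it had 33 and 52 reads with drug against 6 and 9 with vehicle, a log2 fold change of 2.54 ± 0.49 (adjusted p = 3.45e-05, edgeR).

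ACTR2 had 61 and 76 intronic reads in J2 RNA with drug against 12 and 6 in J2 RNA with vehicle (2.998 ± 0.45 on the log2 scale, adjusted p = 6.96e-07, edgeR). In the input it had 40 and 80 against 13 and 17 (2.05 ± 0.42, adjusted p = 6.61e-05, edgeR). ARPC1A had 368 and 287 against 88 and 80 in J2 RNA (2.06 ± 0.20, adjusted p = 2.04e-10, edgeR). All these drug libraries lay above their vehicle libraries. ARPC1A had 169 and 194 against 65 and 60 in the input (1.59 ± 0.21, adjusted p = 1.21e-07, edgeR). ARPC1B had 168 and 158 against 56 and 76 in J2 RNA (1.40 ± 0.21) and 178 and 162 against 79 and 87 in the input (1.09 ± 0.21). ARPC2 had 55 and 57 against 6 and 21 in J2 RNA (2.14 ± 0.41) and 57 and 64 against 34 and 39 in the input (0.79 ± 0.35, adjusted p = 0.0401, edgeR), a call that was lost on leaving out any input library. ARPC3 had 67 and 55 against 62 and 65 in J2 RNA (0.04 ± 0.31) and 77 and 41 against 34 and 49 in the input (0.57 ± 0.32), and both pairs of groups overlapped. Without replicate 2 of input with drug ARPC3 was called higher in the input (0.97).

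Such a rise was the common case: 83.7% of the 3992 genes tested were called higher and 5.74% lower in J2 RNA, and 78.3% and 6.51% in the input, with medians of 2.20 and 1.73. The members had 5 of 6 higher and none lower in each. The same filter was used for all genes, so these shares too can include genes tested only for their reads with drug. The fold changes of ACTR2 and ACTR3 were above these medians in both kinds of RNA. ARPC1A, ARPC1B and ARPC2 rose by less than the medians, and ARPC3, which was not called, was also below them. Scalings that set the median gene near 0 therefore turn ARPC1A, ARPC1B, ARPC2 and ARPC3 to the lower side in the input. With TMM, where 1362 genes were called higher and 1341 lower in the input, these 4 genes had -0.07, -0.56, -0.87 and -1.08, while ACTR2 and ACTR3 stayed positive at 0.39 and 0.89 without a call. The drug effect on intronic reads differed between J2 RNA and input for ACTR3 alone among the 6 (4.27 ± 1.02, adjusted p = 0.00269, edgeR). Of all genes 25.7% were called higher in this contrast. ACTR3 reached the filter only through J2 RNA with drug, which favoured this difference, and its vehicle group in J2 RNA held only 2 reads. Leaving out 1 library gave 3.31 to 7.34 for this difference, 7.34 without replicate 1 and 3.31 without replicate 2 of J2 RNA with vehicle.

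Between J2 RNA and input, few intronic differences were called. With vehicle, ARPC2 had 6 and 21 intronic reads in J2 RNA against 34 and 39 in input (-1.58 ± 0.43 on the log2 scale, adjusted p = 0.00489, edgeR), and ACTR3 had 2 reads against 15, a ratio of 0.120 with a 95% counting interval of 0.0133 to 0.516. These 2 genes were called lower and none higher, where 29.4% and 7.84% of all genes were. The call of ARPC2 was lost without replicate 1 of J2 RNA with vehicle (-0.995, adjusted p = 0.0915, edgeR). That of ACTR3 was lost without replicate 2 of J2 RNA with vehicle or of input with vehicle (adjusted p = 0.155 and 0.118, edgeR). With drug, ACTR3 (1.38 ± 0.35, adjusted p = 0.00199, edgeR) and ARPC1A (0.74 ± 0.18, adjusted p = 0.00162, edgeR) were called higher and none lower, where 26.5% and 18.9% of all genes were. For ACTR3 the filter itself favoured this call, since only in J2 RNA with drug did both libraries reach 1 RPM of intronic reads. Its p-value does not allow for that. The call of ACTR3 was lost without replicate 2 of J2 RNA with drug (0.89, adjusted p = 0.110, edgeR) and without replicate 1 of input with drug (1.10, adjusted p = 0.0567, edgeR), and that of ARPC1A without replicate 1 of J2 RNA with drug (0.50, adjusted p = 0.0783, edgeR).

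In J2 RNA with drug, 1 intron held most of the intronic reads of ARPC1A, ARPC2 and ACTR3. Intron 9 of ARPC1A held 79.4% of that gene's intronic reads, intron 5 of ARPC2 held 68.8% and intron 10 of ACTR3 held 66.0%. The leading intron of ACTR2, intron 9, held 46.7%, and that of ARPC1B, also intron 9, held 42.0%. The intronic share of each intron, which is intronic reads over intronic and spliced reads, was compared with limma on the log2 ratio of intronic to spliced reads, each with 1 added. At least 20 reads in every library were required, which 40 of the 50 introns met. The share counts reads anywhere in an intron and is not the fraction of transcripts that keep it.

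Intron 10 of 11 of ACTR3 (chromosome 2, 113951846 to 113955622, GRCh38) stood out in both kinds of RNA. Its intronic share was 47.0% and 51.0% in J2 RNA with drug against 0 of 95 reads in J2 RNA with vehicle, which allows a share of up to 3.16%. In the input it was 27.3% and 38.8% with drug against 0% and 1.18% with vehicle. The log2 ratio moved by 5.52 ± 0.52 in J2 RNA (adjusted p = 0.000363, limma) and by 5.45 ± 0.52 in the input (adjusted p = 0.000472, limma). It held 54 and 105 intronic reads in J2 RNA with drug against 0 with vehicle, at least 56.6-fold higher by depth when 3 counts over the vehicle group are taken as the floor.

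Intron 9 of 9 of ACTR2 (chromosome 2, 65265176 to 65268563) had a share of 22.7% and 28.3% in J2 RNA with drug against 0 of 117 reads with vehicle, which allows up to 2.56%. In the input it was 8.89% and 23.1% against 0 of 341 reads, which allows up to 0.880%. By reads it was at least 22.8-fold higher with drug in J2 RNA and at least 16.7-fold higher in the input. Intron 8 of ARPC1A (chromosome 7, 99359739 to 99363542) had 35.03% and 21.6% in J2 RNA with drug against 2.27% and 2.06% with vehicle. In the input it had 23.2% and 32.1% against 5.45% and 3.57%. No drug library of these introns overlapped a vehicle library. The next and last intron of ARPC1A, intron 9 (99363634 to 99365890), had 33.5% and 29.2% against 3.72% and 3.07% in J2 RNA, and 46.1% and 42.4% against 10.1% and 9.92% in the input.

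In ARPC1B, on the same strand downstream of ARPC1A, introns 7 and 9 of 9 behaved likewise. Intron 9 (chromosome 7, 99394120 to 99394450) had 16.0% and 15.8% in J2 RNA with drug against 1.86% and 0.940% with vehicle, and 13.6% and 13.9% in input with drug against 2.39% and 2.18% with vehicle. Intron 7 (99391254 to 99392670) had 9.35% and 10.4% against 0.958% and 1.88% in J2 RNA, and 22.2% and 19.8% against 1.62% and 1.79% in the input. An exon of PDAP1 lies in intron 7 on the opposite strand, and its reads could not be told apart because the strand setting of the counting is not given in the sources used here. Intron 9 also holds an exon of another transcript of the gene. Exons of other transcripts of the same gene lie in intron 8 of ARPC1A too. The same is true of some introns described below, such as intron 5 of ARPC2 and intron 5 of ACTR3. A read-through gene that joins ARPC1A and ARPC1B has an exon in intron 3 of ARPC1A.

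These 6 introns were the only ones of the 40 called higher with drug in both kinds of RNA, and each was among the last 3 listed introns of its gene. Of the tested introns in genes with at least 5 listed introns, 6 of 16 among the last 3 and 0 of 22 elsewhere were so called in the Arp2/3 genes. Over all such genes the shares were 36.9% among the last 3 and 31.6% elsewhere. This place along the gene was noticed after the values were seen. The floor of 20 reads also limits it. Intron 5 of ACTR3, not among the last 3, went untested for too few reads in J2 RNA with vehicle. Its share was 41.9% and 35.7% in input with drug against 0% and 3.49% in input with vehicle. In J2 RNA it was 20.4% and 28.4% with drug against 0 of 22 reads with vehicle.

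**Figure D4:**
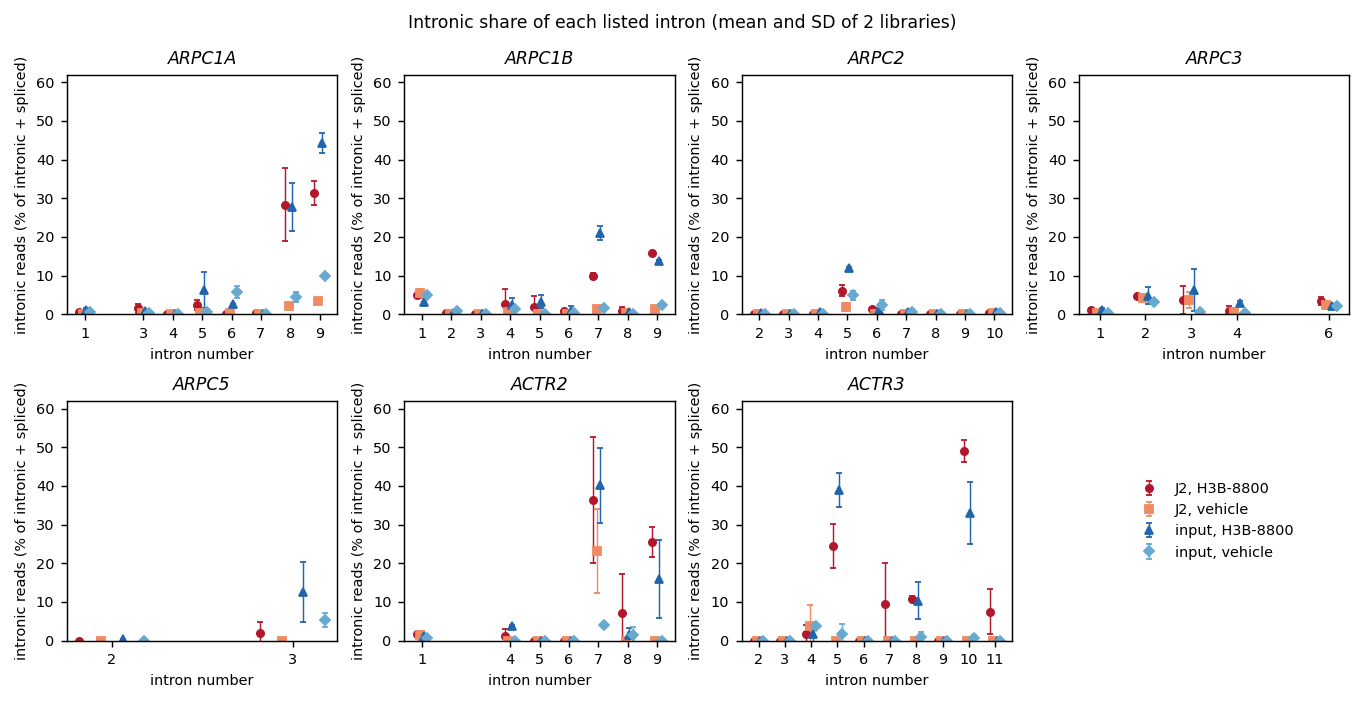
Intronic share of every listed intron, in percent of its intronic and spliced reads, as the mean and SD of 2 libraries per group, with introns numbered from the 5′ end. Intron 10 of ACTR3 reaches 49.0% in J2 RNA with drug and 33.0% in input with drug, and intron 9 of ARPC1A 31.4% and 44.2%, while no intron of ARPC2 exceeds 11.9%.

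Altogether 9 introns were called higher in the input and none lower, where 41.5% and 2.67% of the 30262 introns tested were, and the median change was 0.91 on the log2 scale over the 40 introns against 1.27 over all. Beside the 6 above these were introns 5 of ARPC1B (4.13 ± 1.14), 3 of ARPC3 (2.93 ± 0.96) and 2 of ARPC5 (1.91 ± 0.29). The first had 13 and 6 intronic reads with drug and 0 with vehicle, the next 10 and 2 against 0 and 2, and the last 3 and 4 against 0. In J2 RNA 14 were called higher and 1 lower, against 43.1% and 3.76%, with medians of 1.15 and 1.30. The others called higher lay in ARPC1A (introns 1, 3, 5 and 7), ARPC2 (introns 5, 6 and 7) and ACTR3 (intron 11), with changes of 1.73 to 3.03. Of these 8, all but introns 1 and 7 of ARPC1A were lost when 1 or another J2 library was left out.

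Part of these calls rests on the spliced reads. Intron 7 of ARPC1A had 1 intronic read in J2 RNA with drug and 0 with vehicle, while its spliced reads were 244 and 236 against 783 and 1010. Intron 3 of ACTR3, the 1 called lower, had no intronic read in any library and spliced reads of 122 and 137 against 49 and 59. Intron 5 of ARPC2 (chromosome 2, 218234398 to 218238663) had reads behind its call, with a share of 7.04% and 5.04% against 1.06% and 2.56% in J2 RNA. In the input this intron had 12.1% and 11.7% against 5.75% and 4.07% and did not pass (1.37 ± 0.46, adjusted p = 0.0515, limma). The calls of introns 3 of ARPC3 (2.08 to 3.79) and 5 of ARPC1B (3.63 to 4.63) were lost on leaving out any 1 input library, and that of ARPC3 also on leaving out either library of J2 RNA with vehicle. Leaving out 1 library left 8 to 14 calls in J2 RNA, and that of intron 3 of ACTR3 was lost without replicate 2 of J2 RNA with drug or replicate 1 of J2 RNA with vehicle.

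Among the 10 introns with too few reads for the test, intron 5 of ACTR3 had a share of 20.4% and 28.4% in J2 RNA with drug against 0 of 22 reads with vehicle, which allows up to 13.6%. In the input it had 41.9% and 35.7% against 0% and 3.49%. Intron 7 of ACTR2 had 22 and 29 intronic reads in J2 RNA with drug against 2 and 4 with vehicle, and 14 and 24 in input with drug against 4 and 6 with vehicle. Over all 50 introns the share was higher in each drug library than in each vehicle library for 22 introns in J2 RNA and for 22 in the input, where 30.7% and 33.3% of the 66082 introns with a read in every library were. Among the 40 tested introns these counts were 19 and 18, against 45.9% and 47.2% of the 30262 tested over all genes. The share was lower in each drug library for 0 of the 50 introns in J2 RNA and for 2 in the input, intron 6 of ARPC1A and intron 1 of ARPC1B, against 3.83% and 3.81% of introns over all genes. Both of these are among the 40 tested, against 4.12% in J2 RNA and 4.55% in the input of the tested introns over all genes. Intron 6 of ARPC1A had 2.61% and 2.50% in input with drug against 6.77% and 4.64% in input with vehicle, and intron 1 of ARPC1B had 3.09% and 3.04% against 5.37% and 4.35%, and neither passed the test. The other introns overlapped, most of them at or near 0.

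The 3′ ends of introns carry the branch point that SF3b recognizes, and they are shown here for tested introns whose log2 ratio of intronic to spliced reads changed most and least with drug. Only introns that a GENCODE 29 transcript keeps could be read, since no genome sequence was used here, and this was the case for 11 of the 50. Introns with too few reads for the test, such as the readable intron 5 of ACTR3, are not among those shown. Each sequence gives the last 60 bases of the intron on the transcribed strand, 5′ to 3′, with its place on GRCh38. Capitals mark the closing AG and each match to CTNA, a short pattern found at many branch points, searched on the transcribed strand only. The readable introns with the largest tested change of the log2 ratio in the input, the last of them chosen after its values were seen, were these.
ACTR3 intron 10, chr2:113955563-113955622, plus strand: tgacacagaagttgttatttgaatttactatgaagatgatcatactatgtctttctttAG
ARPC3 intron 3, chr12:110437153-110437212, minus strand: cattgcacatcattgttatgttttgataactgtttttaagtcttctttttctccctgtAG
ARPC1A intron 8, chr7:99363483-99363542, plus strand: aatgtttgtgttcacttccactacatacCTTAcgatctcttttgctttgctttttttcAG
ARPC1B intron 9, chr7:99394391-99394450, plus strand: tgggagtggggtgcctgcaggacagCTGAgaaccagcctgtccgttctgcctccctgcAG
The readable introns with the smallest tested change in the input were these.
ARPC1B intron 4, chr7:99389845-99389904, plus strand: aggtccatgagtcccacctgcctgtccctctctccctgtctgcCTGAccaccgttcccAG
ARPC3 intron 2, chr12:110440389-110440448, minus strand: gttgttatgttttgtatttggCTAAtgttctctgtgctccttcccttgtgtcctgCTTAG
ARPC2 intron 9, chr2:218249761-218249820, plus strand: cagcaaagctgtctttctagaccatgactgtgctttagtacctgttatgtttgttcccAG

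Both sets held introns with and without a match. CTNA was found in introns 8 of ARPC1A and 9 of ARPC1B but not in intron 3 of ARPC3 or in intron 10 of ACTR3, which had the largest change of the 40 tested. It was found in introns 4 of ARPC1B and 2 of ARPC3 but not in intron 9 of ARPC2, and in ARPC3 1 of the matches overlaps the closing AG. Of the 11 readable introns 7 held a match, against 71.9% of the 16884 readable introns of all genes. Pyrimidines made up 75%, 85%, 90% and 80% of the 20 bases before the AG in the first set and 75%, 85% and 75% in the other, against a median of 75% over all. Intron 10 of ACTR3 and intron 9 of ARPC1B are kept whole by an annotated retained-intron transcript.

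The genes around the complex were described by lists chosen with results known, and their counts are read beside the shares of all genes given above. With drug 34.6% of all genes rose and 39.5% fell in J2 RNA, and 21.8% rose and 48.7% fell in the input. With vehicle 16.4% were higher and 44.3% lower in J2 RNA than in input. Of 20 tested activators of the WASP and WAVE families, spliced reads rose with drug for 15 and fell for 3 in J2 RNA, and rose for 9 and fell for 8 in the input. WASF2, which encodes the WAVE2 activator, rose by 1.67 ± 0.16 in J2 RNA and by 1.10 ± 0.14 in the input (log2, adjusted p = 8.78e-06 and 7.51e-05, edgeR). BAIAP2, an adaptor between membranes and WAVE, fell by 1.15 ± 0.07 and 1.24 ± 0.07. NCKAP1, a subunit of the WAVE regulatory complex, fell by 2.04 ± 0.25 in the input. In J2 RNA its mean was higher with drug, at 9.71 RPM (SD 4.31), than with vehicle, at 2.25 RPM (SD 0.33). With the input effect of NCKAP1 subtracted from its J2 effect, the difference was 4.15 ± 0.37 (adjusted p = 7.2e-05, edgeR). In J2 RNA with vehicle 12 of the 20 were lower than in input and 1 was higher, with NCKAP1 at -3.49 ± 0.27 and WASF2 at -2.09 ± 0.16. The median over the list was -0.70 in this comparison, against -0.28 over all genes.

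Of 9 tested stabilizers and inhibitors of branches, 6 fell and 2 rose with drug in J2 RNA, and 5 fell and 1 rose in the input. CORO1B, a coronin that takes branches apart, fell by 1.13 ± 0.06 in J2 RNA and 1.41 ± 0.06 in the input. Its intronic reads rose by 4.64 ± 0.19 and 3.35 ± 0.17, both above the medians of all genes. CTTN, encoding cortactin, which holds branches in place, was higher in J2 RNA than in input with drug (0.28 ± 0.05) and with vehicle (0.21 ± 0.05). CORO1C, another coronin, rose in the input by 0.76 ± 0.12. In J2 RNA its mean was 7.49 RPM (SD 1.01) with drug and 9.29 RPM (SD 0.015) with vehicle. With the input effect of CORO1C subtracted from its J2 effect, the difference was -1.07 ± 0.17 (adjusted p = 0.000944, edgeR).

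Of 11 tested formins and other nucleators, which make unbranched filaments, 6 fell and 3 rose with drug in J2 RNA, and 8 fell and 2 rose in the input. FMNL1 fell by 1.48 ± 0.06 in J2 RNA and 1.96 ± 0.06 in the input, and INF2 by 0.88 ± 0.07 and 1.73 ± 0.08. The intronic reads of INF2 rose by 6.35 ± 0.13 and 5.72 ± 0.13. Of 20 genes for actin and filament turnover, 6 fell and 8 rose in J2 RNA, and 9 fell and 7 rose in the input. Both lists stand beside 39.5% of all genes falling and 34.6% rising in J2 RNA, and 48.7% and 21.8% in the input. VASP, which speeds filament growth, fell by 1.46 ± 0.05 in J2 RNA and 1.83 ± 0.05 in the input, while CFL1, encoding the severing protein cofilin, rose by 0.90 ± 0.05 in the input. Of the paralogs of the complex, ARPC5L rose by 1.14 ± 0.07 in J2 RNA and 0.71 ± 0.07 in the input, and ACTR3B rose by 0.77 ± 0.25 in J2 RNA.

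The drug effect on spliced reads was higher in J2 RNA than in the input for 8 of 20 activators and lower for 0. It was higher for 8 of 11 formins and other nucleators and lower for 0. Of 20 genes for actin and filament turnover 9 were higher and 6 lower. Of 9 stabilizers and inhibitors of branches 3 were higher and 1 lower, and of 2 paralogs 1 was higher and 0 lower. All genes were called higher in 35.8% and lower in 13.8% of cases in this contrast.

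The 5 genes whose spliced profile over the 8 libraries was most like the mean of the 7 members were ATP5O, ESYT2, FAM160A2, FKBP8 and DAZAP1. Their root mean square difference from that mean, on log2 of RPM + 0.1 centred on each gene, was 0.0427 to 0.0582. The members themselves were farther from their own mean, from 0.190 for ARPC3 to 0.887 for ARPC1A.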

How the data were processed

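Per the labels, polyadenylated RNA of 8 SUM159 samples, input or J2 immunoprecipitate, was sequenced as stranded libraries. HISAT2 2.0.4 and the hg38 and mm10 builds are named in the submitters' processing notes. The counting program, its strand setting and the choice of introns are not given in the sources used here. The deposited tables hold, per intron, a count of intronic reads, a larger total count, and an RPKM value that the authors computed from the intronic count, the intron's length and a depth rounded to a multiple of 1000000 reads. That depth was read back from the RPKM and used as library size. The meaning of the total as intronic plus spliced reads was inferred from the values. Of 142224 introns, 142206 were used, because 18 very short ones (9 bases or fewer) are incomplete.

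Counts were summed per gene. Genes with at least 1 RPM in 2 libraries were tested with edgeR 4.0.16 (quasi-likelihood, R 4.3.3) and introns with at least 20 reads in every library with limma 3.58.1, in 1 fit of 4 group means over all 8 libraries. Benjamini-Hochberg adjustment ran over all 8461 genes for spliced reads, 3992 genes for intronic reads and 30262 introns. The SE of an edgeR fold change was taken from its F statistic. The procedure was tested on simulated data. Alternatives were TMM and median-of-ratios scaling, listed reads as library size, DESeq2 1.42.0, other filters and pseudocounts, a replicate block, and leaving out each library. Counting intervals and floors (3 counts, 95%) cover counting error only, since reads were not marked by molecule.

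The members and the gene lists were chosen with earlier results of these data known. Genes outside the complex were named by rule: up to 3 per list, comparison and direction with the smallest p past the threshold, and the 5 genes with the most similar profile. Intron coordinates are those of the files on GRCh38, and all 50 member introns match GENCODE 29. With 2 replicates per group, the p-values measure the spread between these cultures of 1 line.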

Additional observations from a re-analysis of the deposited data

Results flagged for a closer look

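For each of the 7 listed genes the drug effect on spliced reads differed between J2 RNA and input by the interaction test (edgeR's quasi-likelihood test, Benjamini-Hochberg over 8461 genes). With the input effect subtracted from the J2 effect, the difference was 2.19 on the log2 scale for ACTR3, 0.96 for ACTR2, 0.58 for ARPC5 and 0.23 for ARPC1B, and -0.83 for ARPC2, -0.82 for ARPC1A and -0.37 for ARPC3. ACTR3 had 16.2 and 22.0 RPM in J2 RNA with drug against 7.87 and 8.49 RPM in J2 RNA with vehicle, and 14.8 and 16.3 RPM in input with drug against 28.6 and 32.3 RPM in input with vehicle, so that its effects had opposite signs. ARPC2 also moved in opposite directions, falling in J2 RNA and rising in the input. Of all tested genes 35.8% were called higher and 13.8% lower in this contrast.

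The drug effect on intronic reads of ACTR3 was higher in J2 RNA than in the input by 4.27 on the log2 scale (adjusted p = 0.00269, edgeR). It rests on 241 reads in J2 RNA with drug against 2 in J2 RNA with vehicle, and 85 in input with drug against 15 in input with vehicle. ACTR3 reached the filter of 1 RPM in 2 libraries only through J2 RNA with drug (1.66 and 2.98 RPM). The filter itself thus favoured a positive difference, and the p-value does not allow for that. Leaving out 1 library gave 3.31 to 7.34, with 7.34 without replicate 1 and 3.31 without replicate 2 of J2 RNA with vehicle. GC content and length of the transcripts went with these contrasts across genes, and their part in these results was not tested.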

How the results depend on the processing

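Scaling changed most. Under TMM, the median of ratios and DESeq2, in this order, the drug effect on spliced reads in the input turned direction for ACTR2 (0.0038, 0.13 and 0.13) and ARPC3 (0.086, 0.22 and 0.22). With vehicle, spliced reads in J2 RNA over input turned for ARPC1B (0.23, 0.35 and 0.35) and ARPC5 (0.23, 0.35 and 0.35). The difference of drug effects for ARPC1B turned under the median of ratios and DESeq2 (-0.11 each). The drug effect on intronic reads in the input turned for ARPC1A (-0.066, -0.090 and -0.091), ARPC1B (-0.56, -0.59 and -0.59), ARPC2 (-0.87, -0.89 and -0.90) and ARPC3 (-1.08, -1.10 and -1.10). In J2 RNA it turned for ARPC1A (-0.12, -0.10 and -0.10), ARPC1B (-0.77, -0.76 and -0.76) and ARPC3 (-2.13, -2.12 and -2.12), and for ARPC2 under TMM (-0.021) and the median of ratios (-0.0037). The intronic difference of drug effects turned for ARPC1A (-0.052, -0.011 and -0.011) and ARPC1B (-0.21, -0.17 and -0.17). Intronic reads of ACTR2 in J2 RNA over input with drug turned under TMM (-0.0056), those of ARPC3 with listed reads as library size (0.0088), and the log2 ratio of intron 5 of ARPC2 in J2 RNA under the median of ratios (-0.36). These scalings set the median gene near 0 by construction, and the cause beyond that was not tested.

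Counts of called members moved with them. For spliced reads in J2 RNA over input with vehicle 4, 5 and 5 were called higher in place of 2. Of all genes 2521, 3049 and 2834 were then called higher, in place of 1386. With drug 5 members were called higher under TMM, DESeq2 and listed reads, in place of 3, and 2723, 2452 and 2782 of all genes, in place of 2387. For the difference of drug effects 2 members were called higher under the median of ratios and DESeq2, in place of 4. Of all genes 1817 and 1642 were then called higher, in place of 3027. For intronic reads with drug in the input 0, 0 and 0 members were called higher in place of 5, and 3, 3 and 2 lower in place of 0. Of all genes 1362, 1340 and 1187 were called higher in place of 3127, and 1341, 1366 and 1255 lower in place of 260. In J2 RNA 1, 1 and 1 members were called higher in place of 5, and 2, 2 and 2 lower in place of 0. Of all genes 1403, 1422 and 1303 were called higher in place of 3342, and 1406, 1390 and 1315 lower in place of 229. For intronic reads in J2 RNA over input with vehicle 2, 2 and 1 members were called higher in place of 0, and 1, 1 and 0 lower in place of 2. Of all genes 821, 856 and 730 were called higher in place of 313, and 569, 539 and 447 lower in place of 1174. Under the median of ratios, 3 introns had a higher and 6 a lower ratio in the input (in place of 9 and 0), and 6 a higher and 6 a lower ratio in J2 RNA (in place of 14 and 1). The higher ones were intron 10 of ACTR3, 9 of ACTR2 and 7 of ARPC1B in the input, and intron 10 of ACTR3, 9 of ACTR2, 7, 8 and 9 of ARPC1A and 9 of ARPC1B in J2 RNA. The share called over all introns was not recorded under this scaling, so these counts are not a result about the members. With the groups of a comparison alone, 18 introns had a higher ratio in the input. The floor of 20 reads then held for the input libraries only, so more introns were tested, such as intron 5 of ACTR3 and intron 7 of ACTR2. The share called over all introns was not recorded for this setting, so the 18 cannot be set against the 9. With these groups alone 3 genes, all of those tested, had more intronic reads with drug in the input. ACTR2, ACTR3 and ARPC3 did not reach the filter on low counts, and ARPC2 reached it only in the libraries with drug. In J2 RNA over input with vehicle 0 were called lower, where ACTR2, ACTR3 and ARPC2 did not reach it. limma with a trend called 2 introns lower in J2 RNA, and the share over all introns was not recorded for it either.

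Leaving out 1 library gave 1 to 2 genes higher with drug in spliced reads of the input, 1 to 2 higher in intronic reads of J2 RNA over input with drug, 1 to 2 lower with vehicle and 1 to 2 higher in the intronic difference of drug effects. It gave 8 to 14 introns higher and 0 to 1 lower in J2 RNA. Values that changed sign spanned -0.33 to 0.64 for intronic reads of ACTR2 and -0.46 to 0.47 for those of ARPC3 in J2 RNA over input with drug. They spanned -0.15 to 0.21 for the drug effect on intronic reads of ARPC3 in J2 RNA, -0.93 to 0.0094 for its difference of drug effects, and -0.14 to 0.065 for spliced reads of ARPC5 in J2 RNA over input with vehicle.

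Samples of the same number did not deviate together, with correlations of -0.08 to 0.10 over genes, so the replicate numbers are not taken as pairs. With the replicate block ACTR3 was called higher in spliced reads of J2 RNA over input with drug (0.28, adjusted p = 0.0343, edgeR), ARPC1B lost its difference of drug effects (0.23, adjusted p = 0.0521, edgeR), and intron 5 of ARPC1A lost its call in J2 RNA (2.38, adjusted p = 0.0616, limma). The block changed no other call of a member. Of 50 introns 10 had too few reads for the test, and many calls rest on fewer than 20 intronic reads.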
